A study of Mus musculus with 16 samples.

Results

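Large peritoneal macrophages are the resident macrophages of the peritoneal cavity, and 10 genes known for these cells were followed here on 16 Affymetrix mouse arrays of B cell preparations: Timd4, Gata6, Prg4, Fn1, Serpinb2, Alox15, Ednrb, Ecm1, F5 and Saa3. All probe sets annotated to 1 of these symbols were taken, 16 of the 45101 on the array. They stand for 10 of the 15129 named genes measured. The genes were picked with their levels in the peritoneal preparations already known, so those levels are given below as a description with no test. The question behind them is how much RNA of residual peritoneal macrophages each B1a preparation held.

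The study set B cells of congenic mice against those of C57BL/6 (B6) mice in 4 groups of 4 arrays. Sle2c1_B1a is peritoneal B1a cells of B6.Sle2c1 mice, which carry on the B6 background a stretch of chromosome from the NZM2410 lupus model. That stretch includes Cdkn2c, the gene of a cell cycle inhibitor. B6_B1a is the same preparation from B6 mice, Sle2c1_Bs is CD43-negative spleen B cells of B6.Sle2c1 mice, and B6_Bs is the same spleen cells of B6 mice. All mice were 5 months old, the labels name no treatment, and every group shares the B6 background. For B1a cells, the labels describe removal of macrophages by adherence in a 2 h culture in 10% serum, then negative selection with Thy1.2 and CD3ε antibodies and positive selection with a CD5 antibody. The stated purity was 80% B220int CD5+ cells for B1a preparations, so that other cell types had room in them, and above 90% B220hi cells for spleen. No label says whether the replicate numbers stand for single mice or pools, or gives a processing day. The p-values below therefore measure the spread between these arrays, which may in part be technical. That spread was pooled over all 4 groups. A p-value between the B1a groups thus also rests on the spleen arrays, unless a fit of the B1a arrays alone is named.

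Large peritoneal macrophages depend on the transcription factor GATA6, which sets much of the programme that separates them from other macrophages. They take up dying cells, carry the phosphatidylserine receptor Tim4, and express coagulation factors and matrix proteins. They share the cavity with B1a cells, which are also self-renewing residents there. In a bulk preparation, fewer macrophages and less RNA per macrophage cannot be told apart.

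The deposited values are scores that behave like a log signal, with no stated log base or scaling, so differences are given in score units and not as fold changes. Values below 0.495 score units carried no usable order and were set to that value, called the floor. B cell markers summed to much the same level on all B1a arrays (16.1 to 16.7 score units over 6 genes in Sle2c1_B1a, 16.2 to 16.8 in B6_B1a). Cdkn2c, the gene of the congenic segment, had values of at most 0.88 score units on the Sle2c1_B1a arrays, against at least 1.04 on the B6_B1a arrays, and at most 0.60 on the Sle2c1_Bs arrays, against at least 1.21 on the B6_Bs arrays. Array Sle2c1_B1a 4 stood apart from the other B1a arrays on the first principal component (-2.4, with the other 3 of its group between -36.4 and -27.1), and B6_Bs 1 (-11.5) and B6_Bs 3 (61.3) stood apart among the spleen arrays, where the others of B6_Bs lay at 29 and 19.9. The number of arrays limits the precision of every value.

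For 7 windows of 6 of the 10 genes the RefSeq promoter table of build GRCm38.p6 holds a sequence, from 250 bases before to 50 bases after an annotated start. Since GATA6 is the factor these macrophages are known for, the windows were searched for AGATAA and its reverse complement TTATCT, a form of the sequence that GATA factors bind. A match stood in 2 windows, 1 of Serpinb2 and the 1 of Saa3, and in 11.2% of all 32851 windows of that length in the table. The windows of Timd4, Ednrb, Ecm1 and F5 and the other window of Serpinb2 had no match. These are the 2 windows with a match, in capitals, and the window of Timd4, the gene whose B1a groups lay furthest apart, all 5′ to 3′ on the strand of the gene. The Serpinb2 window is chr1:107511260-107511559 on the plus strand, and its match begins at position -41 from the start.
Serpinb2: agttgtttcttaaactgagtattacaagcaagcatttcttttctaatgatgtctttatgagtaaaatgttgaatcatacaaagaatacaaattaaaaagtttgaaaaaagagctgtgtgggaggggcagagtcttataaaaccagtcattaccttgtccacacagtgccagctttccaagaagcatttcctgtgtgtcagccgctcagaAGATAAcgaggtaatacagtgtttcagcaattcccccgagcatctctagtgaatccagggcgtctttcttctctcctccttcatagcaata
The Saa3 window is chr7:46715627-46715926 on the minus strand, and its match begins at position -134.
Saa3: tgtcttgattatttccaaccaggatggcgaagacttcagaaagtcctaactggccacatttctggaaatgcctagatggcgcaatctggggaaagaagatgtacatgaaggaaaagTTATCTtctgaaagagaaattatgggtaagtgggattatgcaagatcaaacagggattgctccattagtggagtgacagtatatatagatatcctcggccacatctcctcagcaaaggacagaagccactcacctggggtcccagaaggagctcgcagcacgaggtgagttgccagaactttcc
The Timd4 window is chr11:46810549-46810848 on the plus strand.
Timd4: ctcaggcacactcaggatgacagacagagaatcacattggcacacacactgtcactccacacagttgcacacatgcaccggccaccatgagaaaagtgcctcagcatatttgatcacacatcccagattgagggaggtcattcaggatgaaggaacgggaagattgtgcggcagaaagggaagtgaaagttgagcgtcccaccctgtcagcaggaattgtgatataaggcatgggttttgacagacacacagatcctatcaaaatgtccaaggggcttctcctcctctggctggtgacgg
A match is a description of letters in the window and was not tested as a binding site.

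The genes fell into a common pattern on the B1a arrays. Of the 10, 9 had a lower mean in Sle2c1_B1a than in B6_B1a, and for 7 of them the groups did not overlap, where 4.15% of all 22727 features tested were lower in Sle2c1_B1a without overlap. The genes were picked on this contrast, so nothing is read from that share. Every Sle2c1_B1a array was at the floor for Timd4, Ecm1 and the probe set read for Ednrb. The mean over the 10 genes was 1.03, 0.899, 0.776 and 0.645 score units on Sle2c1_B1a 1 to 4, against 2.17, 1.37, 2.14 and 2.70 on B6_B1a 1 to 4. Every B6_B1a array thus lay above every Sle2c1_B1a array in this mean, and the lowest of them, B6_B1a 2, stood nearer to the Sle2c1_B1a arrays than to B6_B1a 4. Without Sle2c1_B1a 4 the Sle2c1_B1a mean was 0.901 score units, and 7 genes were still lower without overlap.

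**Figure D1:**
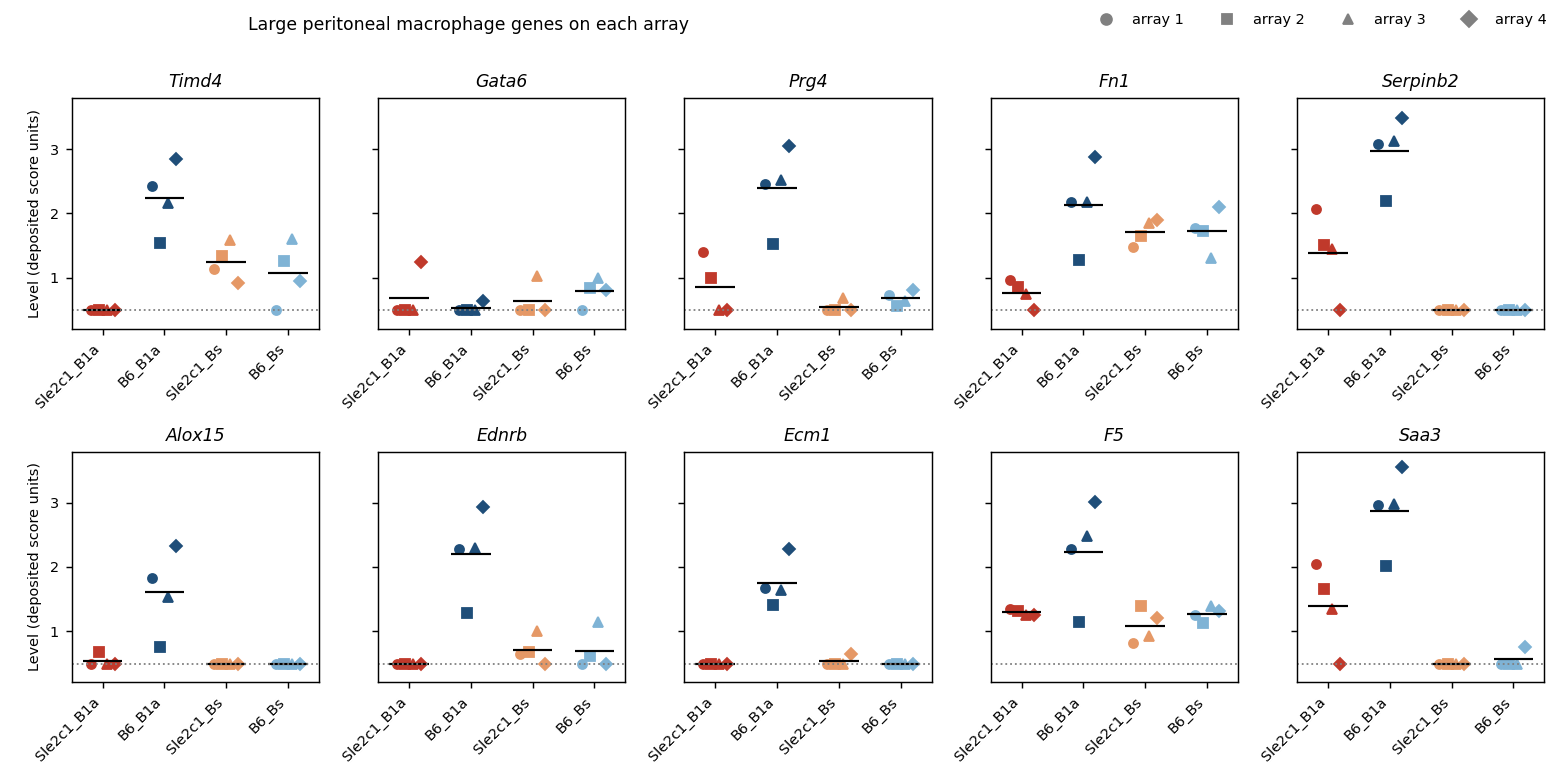
Level of each of the 10 large peritoneal macrophage genes on each array (vertical axis, deposited score units; dotted line, the floor at 0.495; black bars, group means; the marker shape is the replicate number). In B6_B1a, array 4 is the highest of its group in every panel and array 2 the lowest in all but Gata6, whose values lie at or near the floor.

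Timd4 encodes Tim4, the receptor for phosphatidylserine on dying cells and a defining surface protein of resident macrophages. Its level was at the floor of 0.495 on Sle2c1_B1a 1 to 4, against 2.43, 1.54, 2.16 and 2.85 score units on B6_B1a 1 to 4. The group difference was -1.75 score units, a bound because no Sle2c1_B1a array measured the gene, and the lowest B6_B1a array was 1.04 above the floor. Spleen B cells also gave a Timd4 signal, with 1.13, 1.33, 1.58 and 0.92 score units in Sle2c1_Bs against the floor, 1.26, 1.60 and 0.94 in B6_Bs. Both spleen groups thus overlapped, and Sle2c1_B1a was the group with the lowest mean of the 4.

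Ednrb, the endothelin B receptor, had the same form. The probe set read for it had the highest mean over all 16 arrays. It was at the floor throughout Sle2c1_B1a, against 2.28, 1.29, 2.29 and 2.94 score units on B6_B1a 1 to 4. That is a bounded difference of -1.70 (no overlap), which was -0.761 with the mean of the 3 Ednrb probe sets. On the probe set read, spleen arrays reached at most 1.00 score units in Sle2c1_Bs and 1.15 in B6_Bs.

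The genes of secreted and matrix proteins came next. Prg4 encodes lubricin, the lubricating proteoglycan of joint and serosal surfaces. Its level was 1.40 and 0.99 score units on Sle2c1_B1a 1 and 2 and at the floor on Sle2c1_B1a 3 and 4, against 2.46, 1.53, 2.52 and 3.05 on B6_B1a 1 to 4. The means were 0.845 ± 0.437 and 2.39 ± 0.632 score units (SD, n = 4 each), and the lowest B6_B1a array stood only 0.13 above the highest Sle2c1_B1a array. In the spleen groups no array passed 0.80 score units, in B6_Bs 4.

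Fn1 encodes fibronectin. Its level was 0.96, 0.86 and 0.75 score units on Sle2c1_B1a 1 to 3 and at the floor on Sle2c1_B1a 4, against 2.18, 1.28, 2.17 and 2.88 on B6_B1a 1 to 4. The means were 0.766 ± 0.2 and 2.13 ± 0.656 (SD, n = 4 each), without overlap. Fn1 was also measured in spleen B cells, at 1.72 ± 0.19 score units in Sle2c1_Bs and 1.73 ± 0.328 in B6_Bs, so the Sle2c1_B1a arrays lay below all 8 spleen arrays.

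Ecm1, extracellular matrix protein 1, was at the floor throughout Sle2c1_B1a, against 1.67, 1.41, 1.64 and 2.28 score units on B6_B1a 1 to 4. The difference of -1.25 is again a bound. Its lowest B6_B1a array lay 0.915 score units above the floor, the widest gap between the groups after Timd4. In the spleen it was above the floor on 1 array, Sle2c1_Bs 4, at 0.64.

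Serpinb2 encodes a plasminogen activator inhibitor and was measured on 7 of the 8 B1a arrays. Its level was 2.07, 1.5 and 1.44 score units on Sle2c1_B1a 1 to 3 and at the floor on Sle2c1_B1a 4, against 3.08, 2.19, 3.13 and 3.48 on B6_B1a 1 to 4. The groups did not overlap, by 0.12 score units. All 8 spleen arrays were at the floor.

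Saa3, serum amyloid A3, an acute phase protein that macrophages make, behaved much like Serpinb2. It had 2.04, 1.66 and 1.35 score units on Sle2c1_B1a 1 to 3 and the floor on Sle2c1_B1a 4, against 2.96, 2.02, 2.98 and 3.56 on B6_B1a 1 to 4. Sle2c1_B1a 1 lay 0.02 above B6_B1a 2, so the groups overlapped although the means were 1.39 ± 0.658 and 2.88 ± 0.637 (SD, n = 4 each). Among the spleen arrays B6_Bs 4 alone was above the floor, at 0.75.

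Alox15 encodes a lipoxygenase that oxidises fatty acids in resident macrophages. It was above the floor in Sle2c1_B1a on array 2 alone (0.68 score units), against 1.83, 0.76, 1.53 and 2.32 on B6_B1a 1 to 4. B6_B1a 2 cleared the highest Sle2c1_B1a array by 0.08 score units, and all spleen arrays were at the floor.

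F5, the gene of coagulation factor V, differed from the others in that Sle2c1_B1a had a steady level above the floor. Its level was 1.35, 1.32, 1.25 and 1.25 score units on Sle2c1_B1a 1 to 4, against 2.28, 1.15, 2.49 and 3.01 on B6_B1a 1 to 4. B6_B1a 2 lay below all 4 Sle2c1_B1a arrays, and the means were 1.29 ± 0.0506 and 2.23 ± 0.784 (SD, n = 4 each). The spleen groups had 1.08 ± 0.258 score units in Sle2c1_Bs and 1.27 ± 0.110 in B6_Bs, overlapping with the Sle2c1_B1a values.

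Gata6, the factor that gives these cells their identity, was hardly measured. Of its 3 probe sets, 2 did not pass the filter on dim probe sets. The remaining one was above the floor on Sle2c1_B1a 4 (1.24 score units) and B6_B1a 4 (0.64) alone among the B1a arrays, and its group difference was 0.15. Its means were also higher in B6_Bs (0.784) than in either B1a group (0.681 in Sle2c1_B1a, 0.531 in B6_B1a), all with overlapping arrays. The levels of Gata6 therefore did not follow those of the other 9 genes.

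Probe sets of the same gene did not always show the difference at the same size. Of the 10 genes, 4 had more than 1 probe set, and 14 of the 16 probe sets passed the filter. The second Fn1 probe set had a difference of -0.54 score units, against -1.36 for the first. The other 2 Ednrb probe sets gave -0.445 and -0.134, and the second F5 probe set gave -0.124. In Sle2c1_B1a the Ednrb probe set with -0.445 was above the floor on arrays 1 to 3 (0.9, 1.13 and 0.73 score units). The Ednrb probe set with -0.134 was above it on arrays 1 and 4 (0.93 and 0.95). The bound given for Ednrb thus rests on 1 of its 3 probe sets. In all 4 of these further probe sets the groups overlapped. Each had a lower mean over the 16 arrays than the probe set described above. For the Ednrb probe set with -0.445 this rested on B6_B1a, with a mean of 1.26 score units against 2.2. Its means were higher in Sle2c1_B1a (0.814 against 0.495), B6_Bs (0.895 against 0.688) and Sle2c1_Bs (1.07 against 0.706).

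**Figure D2:**
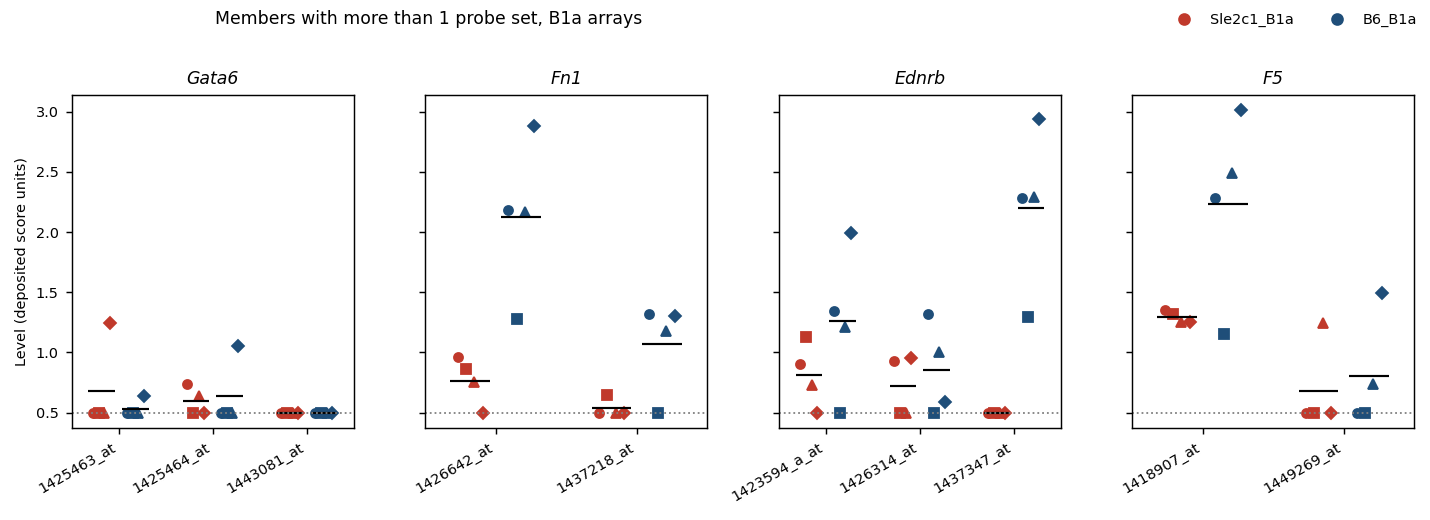
Levels (vertical axis, deposited score units; dotted line, the floor) of every probe set of Gata6, Fn1, Ednrb and F5 on the Sle2c1_B1a and B6_B1a arrays, with black bars for group means and marker shapes for replicate numbers as in the plot of all 10 genes. The probe set read for Fn1, Ednrb and F5 shows the widest separation of the group means. In the other ones the groups overlap, as they also do on the probe sets read for F5 and Gata6.

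Within B6_B1a the preparations differed from each other in a fixed order. Of the 10 genes, 9 were above the floor on all 4 B6_B1a arrays, and in 9 of these 9 array 4 was the highest and array 2 the lowest. That order held in 8.06% of the 12053 features that passed the floor on each of these arrays, and in 7.25% of the 6205 features whose B6_B1a mean lay in the range of the 9 genes. The genes were picked with their B1a levels known, and those counted had to be above the floor in B6_B1a. Nothing is therefore read from these shares. The difference between B6_B1a 4 and B6_B1a 2 ran from 0.87 (Ecm1) to 1.86 score units (F5), with a median of 1.54, where the median range over the 4 arrays was 0.19 over the 12053 features. For comparison, the median difference between Sle2c1_B1a and B6_B1a over the same 9 genes was -1.49 score units. In Fn1, Alox15, F5 and Saa3 the difference between these B6_B1a preparations was at least as large as the difference between the strains. The strain differences are between group means, and they and their median are cut short where Sle2c1_B1a arrays were at the floor. The array differences are between the highest and the lowest array of a group. Without a floor the strain differences of Alox15 and Saa3 were -5.49 and -2.86, so for these genes the comparison depends on the floor.

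**Figure D3:**
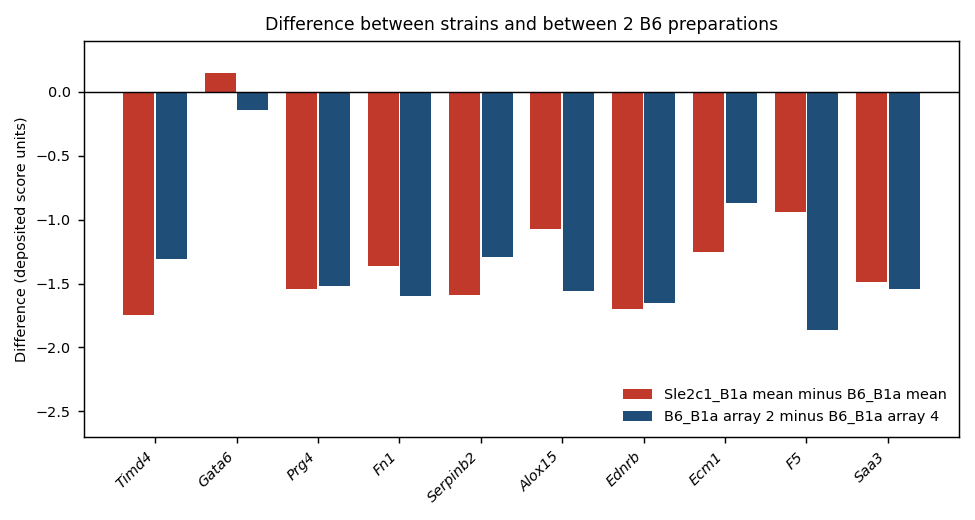
For each gene, the difference in deposited score units (vertical axis) between the Sle2c1_B1a and B6_B1a means (red) and between arrays B6_B1a 2 and B6_B1a 4 of the same group (blue). Apart from Gata6, whose bars are short, both bars of a gene run downward, and the blue bar is at least as long as the red one in Fn1, Alox15, F5 and Saa3. The floor shortens the red bars of genes with Sle2c1_B1a arrays at the floor, Fn1, Alox15 and Saa3 among them.

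The order of the Sle2c1_B1a arrays could be followed in fewer genes, since many values were at the floor. Serpinb2, Saa3 and Fn1 were measured on Sle2c1_B1a 1 to 3, with array 1 the highest in each, and were at the floor on array 4. From 2 to 6 of the 10 genes were above the floor on an Sle2c1_B1a array, against 9 or 10 on a B6_B1a array.

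Lists of genes of other cell types show which other transcripts moved with the 10 genes. Of 25 further genes reported for large peritoneal macrophages, 24 were measured. Their mean level per array was 1.05 to 1.15 score units in Sle2c1_B1a, against 1.19 to 1.99 in B6_B1a. The array order of the 10 genes, B6_B1a 4 highest and B6_B1a 2 lowest, recurred in 9 of the 15 that were above the floor on all 4 B6_B1a arrays. Of the general macrophage genes it recurred in 8 of 14. It also recurred in 1 of 5 small peritoneal macrophage and monocyte genes and 1 of 3 splenic red pulp macrophage genes. It recurred in 0 of 6 mast cell genes, 0 of 3 T and NK cell genes, 0 of 3 neutrophil genes, 0 of 5 B cell genes and 0 of 7 B1a cell genes, against 8.06% of all features. The lists were drawn up with earlier results of these data known, so these counts are a description too.

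Their strain difference was tested with limma, with adjustment over all 22727 features. The lists of further genes were drawn up with earlier results of this contrast known, so their counts are not independent evidence of a direction. In Sle2c1_B1a against B6_B1a, 3 of the 24 were lower and 0 higher, where 1.45% of all features were lower and 1.93% higher. At an unadjusted limma p under 0.05 it was 10 lower and 0 higher, where 17.2% of all features passed in either direction. Their median difference was -0.431 score units, against 0.025 over all features. Pf4, a chemokine of megakaryocytes and some macrophages, was at the floor on Sle2c1_B1a 1 to 3 and 0.72 score units on Sle2c1_B1a 4, against 1.87, 1.02, 2.00 and 2.66 on B6_B1a 1 to 4 (difference -1.34, limma adjusted p = 0.00444). Ltbp1, a binding protein of latent TGF-β, averaged 1.92 ± 0.446 score units in Sle2c1_B1a and 3.01 ± 0.255 in B6_B1a (SD, n = 4 each; limma adjusted p = 0.0345). With the mean of its probe sets the difference of Ltbp1 was -0.258 (limma adjusted p = 0.38). Cxcl13, the B cell chemokine, averaged 1.62 ± 0.214 and 2.78 ± 0.595 score units in the same groups (SD, n = 4 each; limma adjusted p = 0.0485). In all 3 the groups did not overlap. In a fit of the 8 B1a arrays alone none of the 3 passed. Pf4, Ltbp1 and Cxcl13 had limma adjusted p-values of 0.108, 0.0849 and 0.133 there.

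The count of 3 rested on single arrays. It was 1 without B6_B1a 1, without B6_B1a 3, without B6_B1a 4, without Sle2c1_B1a 2 or without Sle2c1_B1a 3. It was 7 without B6_B1a 2 and 4 without Sle2c1_B1a 4. Pf4 passed in 8 of the 8 fits that left out 1 B1a array, Cxcl13 in 2 and Ltbp1 in 1. Pf4 did not pass without a floor (limma adjusted p = 0.087) or with the floor at 1 (limma adjusted p = 0.0645). With a filter on 8 or more arrays Pf4 was not among the genes tested. Slc7a2, an amino acid transporter (difference -1.20), Cd5l, a secreted scavenger receptor protein (-0.859), Vsig4, a complement receptor (-0.744), and Adgre1, which encodes F4/80 (-0.482), did not pass, with limma adjusted p-values of 0.0677, 0.0715, 0.053 and 0.0508. Cd9 had a difference of 0.0825 score units and Hdc one of 0.04.

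The general macrophage genes ranged from clearly lower to nearly level. Of the 18 measured, 5 were lower in Sle2c1_B1a and 0 higher by limma (8 lower without B6_B1a 2, and 5 without Sle2c1_B1a 4), with a median difference of -0.144. Apoe, apolipoprotein E, was at the floor throughout Sle2c1_B1a, against 1.75, 1.5, 1.64 and 1.92 score units on B6_B1a 1 to 4. Its bounded difference was -1.21 (limma adjusted p = 2.97e-06). Without a floor the difference was -4.13 and did not pass (limma adjusted p = 0.317). Lpl, lipoprotein lipase, C1qb, a chain of complement C1q, and Csf1r, the receptor of the macrophage growth factor CSF1, were likewise never above the floor in Sle2c1_B1a. Their bounded differences were -1.12, -1.67 and -0.825 score units, with limma adjusted p-values of 0.00088, 0.00157 and 0.00323. Csf1r did not pass with the mean of its probe sets (-0.427, limma adjusted p = 0.104). Nor did it pass with the floor at 1 (-0.32, limma adjusted p = 0.287). In a fit of the 8 B1a arrays alone Apoe and Lpl passed (limma adjusted p = 0.000944 and 0.00582). C1qb and Csf1r did not pass there (limma adjusted p = 0.0511 and 0.0556). Without a floor Lpl and C1qb passed (limma adjusted p = 0.0204 each) and Csf1r did not (limma adjusted p = 0.53). Lyz2, lysozyme, averaged 2.02 ± 0.0846 score units in Sle2c1_B1a and 2.88 ± 0.555 in B6_B1a (SD, n = 4 each; limma adjusted p = 0.0246). It did not pass without B6_B1a 1, without B6_B1a 3 or without Sle2c1_B1a 2 (limma adjusted p up to 0.0721). It also did not pass in the fit of the 8 B1a arrays (limma adjusted p = 0.207) or without a floor (limma adjusted p = 0.052). Msr1, a scavenger receptor (-0.986), C1qc (-0.806) and C1qa (-0.425) had lower means and did not pass, with limma adjusted p-values of 0.0717, 0.063 and 0.0985. Cd14, a receptor for bacterial lipopolysaccharide, was 2.78 ± 0.144 score units in Sle2c1_B1a and 2.90 ± 0.431 in B6_B1a (SD, n = 4 each), and the signalling adaptor Tyrobp, the protease Ctsb and the Fc receptor chain Fcer1g differed by -0.015, -0.0075 and -0.035.

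**Figure D4:**
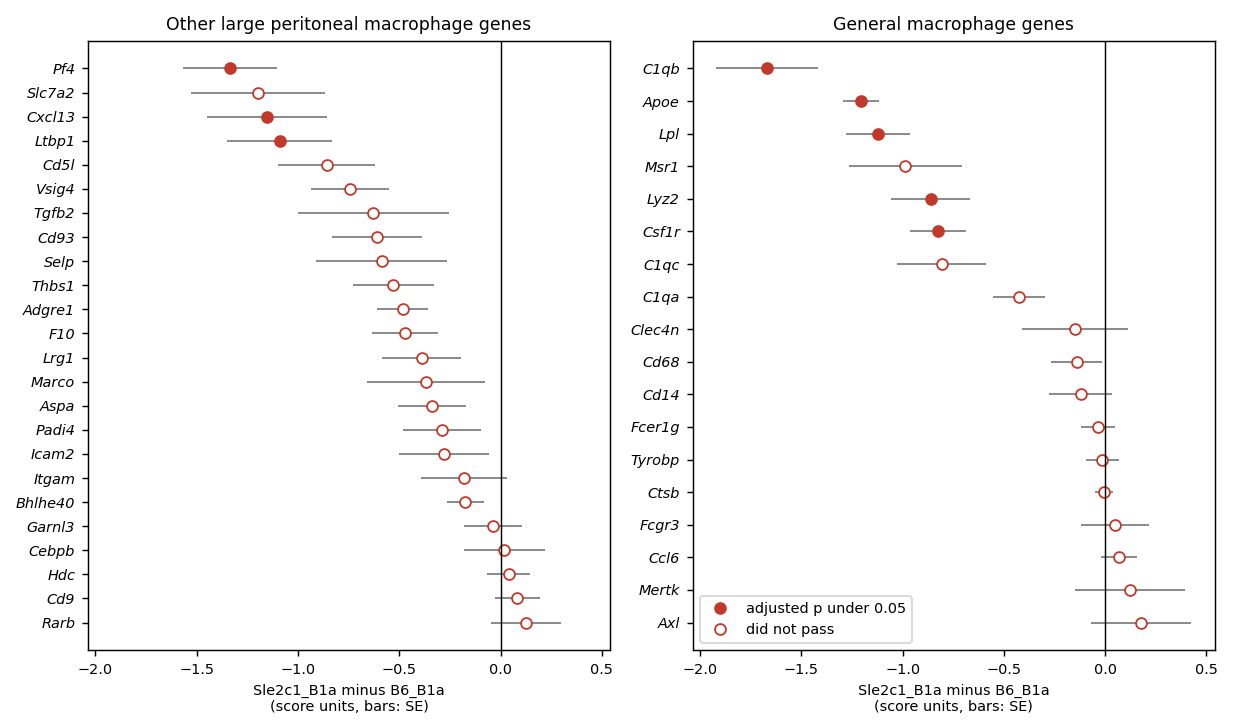
Difference between Sle2c1_B1a and B6_B1a (horizontal axis, deposited score units, bars are SE of the limma fit) of the 24 further large peritoneal macrophage genes (left) and the 18 general macrophage genes (right). Filled points have an adjusted p under 0.05 over all features: 3 at left and 5 at right, all to the left of 0.

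Markers of other cells that a peritoneal preparation can hold were looked at in the same fit. Of the small peritoneal macrophage and monocyte genes 0 of 10 differed between Sle2c1_B1a and B6_B1a, with a median of 0.0294 score units. The count was also 0 of 7 splenic red pulp macrophage genes, 0 of 8 mesothelium and stroma genes, 0 of 6 neutrophil genes, 0 of 6 dendritic cell genes, 0 of 2 platelet genes, 0 of 6 B cell genes and 0 of 8 B1a cell genes by limma. At an unadjusted limma p under 0.05 none of these lists had more than 2 genes. Mast cell genes also gave 0 of 8 (1 at an unadjusted limma p under 0.05), with summed levels of 7.24 to 11 score units in Sle2c1_B1a against 10.1 to 13.8 in B6_B1a. T and NK cell genes summed to 3.67 to 6.63 score units in Sle2c1_B1a against 6.96 to 7.98 in B6_B1a, over 7 genes and without overlap. Cd3g, a chain of the T cell receptor complex, was lower (-0.866, limma adjusted p = 0.0147). Of the 7 genes, 3 were lower and 1 higher at an unadjusted limma p under 0.05. Beside Cd3g the lower ones were Cd3e (-0.801) and Cd3d (-0.616). The higher one was Cd4 (0.4825, a bound because every B6_B1a array was at the floor). Cd3e, Cd3d and Cd4 did not pass after adjustment. Of 5 eosinophil genes Epx, eosinophil peroxidase, was lower (-0.664, limma adjusted p = 0.0102) and Ccr3, the eotaxin receptor, higher (0.963, a bound because every B6_B1a array was at the floor, limma adjusted p = 0.0181). Cd3g and Epx did not pass in a fit of the 8 B1a arrays alone (limma adjusted p = 0.177 and 0.151), nor Ccr3 with the floor at 1 (0.458, limma adjusted p = 0.301). Without Sle2c1_B1a 4, B6_Bs 3 and Sle2c1_Bs 3, Cd3g had a limma adjusted p of 0.0658. The part of these other cells in the levels of the 10 genes was not tested.

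**Figure D5:**
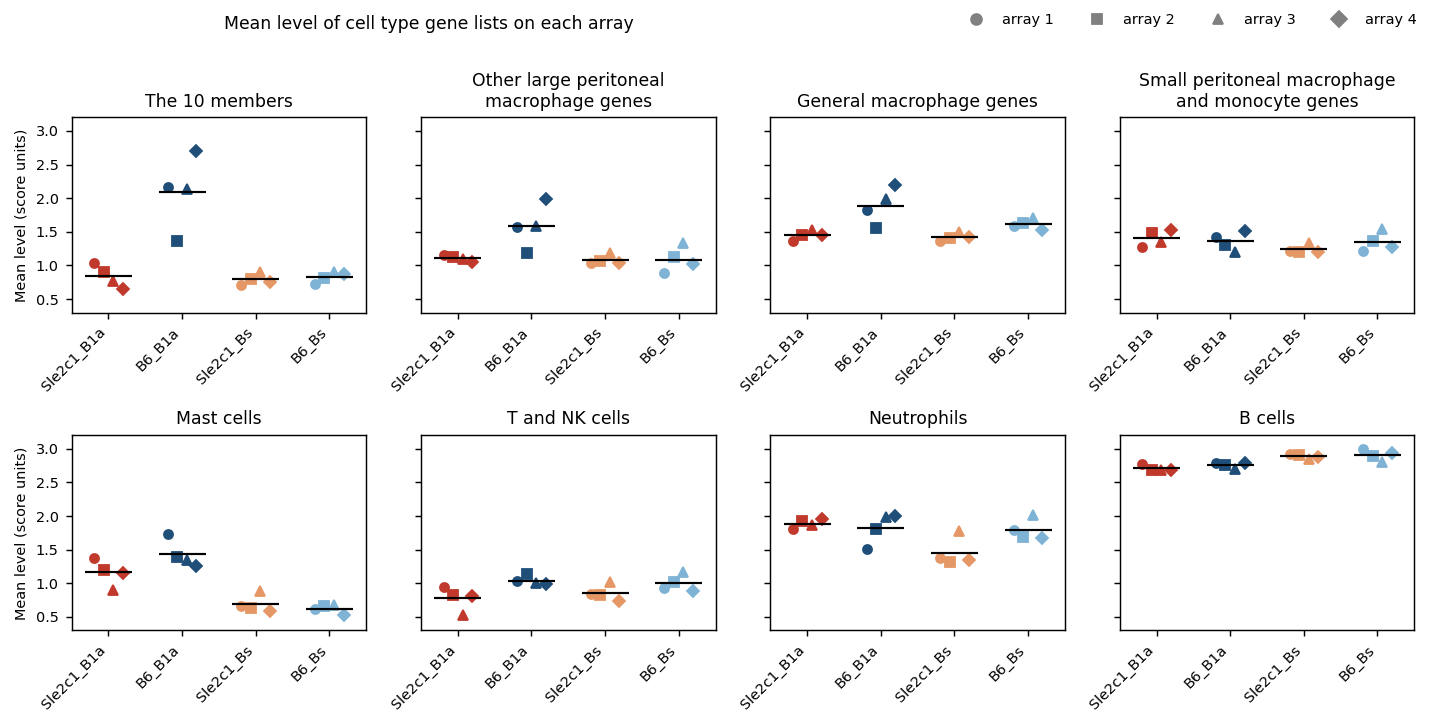
Mean level per array (vertical axis, deposited score units) of the 10 genes and of 7 lists of cell type genes, with black bars for group means and marker shapes for replicate numbers. The B6_B1a arrays spread from 1.37 to 2.70 for the 10 genes, while the B cell list is level across the B1a arrays.

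Spleen B cells of both strains gave the comparison that had no part in picking the genes. Of the 10, 0 differed between Sle2c1_Bs and B6_Bs by limma, where 0.154% of all features passed (35 of 22727), and 0 had an unadjusted p under 0.05 in the same fit, where 3.42% of all features did. In 0 of the 10 did the spleen groups stand apart without overlap, where 1.15% of all features were lower and 1.19% higher without overlap. The lowest unadjusted limma p was 0.382, for Gata6 (difference -0.155, SE 0.172). Timd4 differed by 0.166 score units (SE 0.257), Fn1 by -0.0075 (SE 0.26), F5 by -0.185 (SE 0.276) and Prg4 by -0.139 (SE 0.259). The floor limits this comparison: for 0 of the 9 genes that were lower in Sle2c1_B1a did the B6_Bs mean lie far enough above the floor for a fall of the size seen in B1a cells. Fn1 came nearest, with its B6_Bs mean 1.23 score units above the floor against a B1a difference of -1.36, while Prg4 was 0.185 above it against -1.54. At a background of 0.154%, 0 of 10 does not set the genes apart either. Serpinb2 and Alox15 were at the floor on all 8 spleen arrays and carry no comparison. The mean over the 10 genes was 0.793 ± 0.0843 score units in Sle2c1_Bs and 0.826 ± 0.0799 in B6_Bs (SD, n = 4 each), and their median difference was -0.00375 against 0.015 over all features.

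Peritoneal and spleen cells of each strain were then set side by side, again as a description for the 10 genes. In the B6.Sle2c1 mice 0 of the 10 were higher in Sle2c1_B1a than in Sle2c1_Bs without overlap, where 10% of all features were. Timd4 and Fn1 were lower without overlap, where 15.5% of all features were. In the B6 mice 6 of the 10 were higher in B6_B1a than in B6_Bs without overlap (Prg4, Serpinb2, Alox15, Ednrb, Ecm1 and Saa3), where 10.7% of all features were, and 0 were lower without overlap, where 11.6% were. The differences of these 6 ran from 1.11 (Alox15) to 2.47 score units (Serpinb2). Both comparisons rest on the B1a arrays that were known when the genes were picked.

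The 24 further large peritoneal macrophage genes were tested between the cell types with limma, a comparison added after the values had been seen. In B6 mice 12 were higher in B6_B1a than in B6_Bs and 0 lower, where 9.02% and 12.2% of all features were. In B6.Sle2c1 mice 3 were higher in Sle2c1_B1a than in Sle2c1_Bs and 1 lower, where 11% and 14.7% of all features were. The 3 were Hdc, the enzyme that makes histamine (difference 1.65, limma adjusted p = 4.48e-08), Thbs1, thrombospondin (1.35, limma adjusted p = 0.000188), and the tetraspanin Cd9 (0.715, limma adjusted p = 0.000257). These 3 were also among the 12 in B6 mice, with differences of 1.53, 1.83 and 0.662 score units. Hdc is also a gene of mast cells, and mast cell genes were higher in B1a preparations too, with 3 of 8 past the limma test in B6.Sle2c1 mice (Gata2, Cpa3 and Cma1) and 6 of 8 in B6 mice. The part of mast cells in these differences was not tested. Cd93, a C-type lectin-like receptor, was the one that was lower (-1.10, limma adjusted p = 0.00228). Whether the strains differ in these differences was not tested.

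The named genes outside the 10 whose pattern over the 16 arrays lay closest to the mean of the 10 were found by root mean square distance after centring each gene, as a description with no test. The nearest were Ptges, prostaglandin E synthase (distance 0.111 score units), Pmp22, a peripheral myelin protein (0.143), Pf4 (0.168), Saa1, a serum amyloid gene whose probes may also read its close relatives (0.224), Cd5l (0.244) and Vsig4 (0.25). Apoe, C1qc, Fabp4, Tnfsf9, Il1a and Cd3g followed, at 0.258 to 0.304, where the median of named genes was 0.644. Ptges was at the floor on all arrays other than B6_B1a 1 to 4, where it had 1.74, 0.84, 1.68 and 2.47 score units. Its order over the B6_B1a arrays was that of the 10 genes, and Il1a and Fabp4 had the widest difference between B6_B1a 4 and B6_B1a 2 among these 12, at 2.11 and 2.07. Of the 10 themselves, Alox15 lay nearest to their common mean (0.133) and Gata6 farthest from it (0.706), beyond the median of all named genes.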

How the data were processed

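The authors deposited 1 table of 45101 probe sets on 16 arrays, 64 of them controls. Per the labels' protocols, RNA was amplified and labelled with biotin. The deposited unit is a score that behaves like a log signal, and its base, centring and scaling are not given in the sources used here. The controls cre and bioB lay only 0.72 to 1.71 units apart, so log2 is not assumed, although it was when the tests were planned. Each array's lowest value (-7.72 to -4.99) was shared by 22.8% to 35.6% of its probe sets. No count underlies the values, and the number of arrays limits precision.

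The floor of 0.495 is the median of the arrays' 40th percentiles, and lower values were set to it. A probe set was kept if it passed that percentile of the array in 4 or more of the 16 (35032 kept). Gene names came from the platform annotation (34958 probe sets with 1 gene, 932 with several, 9211 with none), and a RefSeq table of GRCm38.p6 gave current symbols for 99.42% of the first by Entrez identifier. Each gene was read from its brightest probe set (highest mean over the 16 arrays after flooring), leaving 22727 features (15129 named genes). A model of the 4 group means was fitted in R 4.3.3 by limma 3.58.1 (with statmod 1.5.0). The residual spread of a gene was pooled over the 4 groups, so a group wholly at the floor, with an SD of 0, lowered it. Two-sided p-values were adjusted after Benjamini and Hochberg across the features, with calls at 0.05. The procedure was tested on simulated data.

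The members and lists were chosen with earlier results of these data known. Named genes are the 10, list members past the test by smallest adjusted p, the 12 nearest patterns, and a few that did not pass, chosen after their values were seen. Deviations of same-numbered spleen arrays had correlations of 0.387, 0.112, 0.621 and 0.431. Unlike-numbered spleen pairs ran from -0.574 (Sle2c1_Bs 3 with B6_Bs 1) to 0.426 (Sle2c1_Bs 4 with B6_Bs 1). Same-numbered B1a arrays had 0.0853, -0.0111, 0.015 and 0.167. Whether the replicate numbers mark pairs is therefore not known. Alternatives were other floors, filters, scalings, probe set rules and forms of the test, fewer arrays, and a replicate block.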

Additional observations from a re-analysis of the deposited data

Results flagged for a closer look

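In 35 groups of 4 arrays with any spread, 7 had 1 array whose gap to the other 3 exceeded Dixon's critical share of the group's range. For values with a normal spread chance marks about 1 group in 20, a rate that does not apply to floored values. In all 7 the other 3 arrays were at the floor of 0.495 score units, which alone sets the mark. Each is thus a single value above the floor, and nothing is read from the count of 7. Gata6 had 1.24 score units on Sle2c1_B1a 4, 0.64 on B6_B1a 4 and 1.03 on Sle2c1_Bs 3. Prg4 had 0.68 on Sle2c1_Bs 3, and Alox15 had 0.68 on Sle2c1_B1a 2. Ecm1 had 0.64 on Sle2c1_Bs 4, and Saa3 had 0.75 on B6_Bs 4. The arrays Sle2c1_B1a 4 and Sle2c1_Bs 3, each named here, were left out together with B6_Bs 3 in 1 of the alternatives.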

How the results depend on the processing

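The 0 of 10 calls between Sle2c1_Bs and B6_Bs held under all 20 alternatives, though the floor left little room for a fall, the replicate block included (0). The count of genes lower in Sle2c1_B1a without overlap was 7 to 9 when single arrays were left out and 4 with a filter on 8 or more arrays, which keeps fewer genes. The sizes of the B1a differences moved with the floor. Without one they were -7.7 for Timd4, -5.86 for Ecm1, -5.49 for Alox15, -3.13 for Prg4, -2.96 for Serpinb2 and -2.86 for Saa3. Ednrb was at -0.572 without a floor, but there another of its probe sets had the highest mean and was read instead. With a floor at 1 the differences were -1.25 for Timd4, -1.2 for Ednrb and -0.75 for Ecm1. The difference of Gata6 between B1a groups was -1.1 without a floor and -0.0363 without Sle2c1_B1a 4, alone or with 2 spleen arrays, and ran from there to 0.212 without single arrays. In Bs, Gata6 was 0.0075 and Ednrb -0.0375 with the floor at 1, and Fn1 was 0.126 with the mean of its probe sets. Without single arrays Timd4 ran from -0.0267 to 0.342, Fn1 from -0.149 to 0.117 and Ednrb from -0.0792 to 0.173. The mean of the 10 genes moved with the floor, to -1.55 without one and 1.15 with a floor at 1 in Sle2c1_B1a, -2.05 and 1.11 in Sle2c1_Bs, and -0.655 and 1.12 in B6_Bs. It was 0.964 in Sle2c1_Bs and 0.999 in B6_Bs with the filter on 8 arrays, and 0.733 in B6_Bs with the mean of probe sets. The count of further large peritoneal macrophage genes past the test between B1a groups was 3. It became 1 without a floor, where Pf4, Ltbp1 and Cxcl13 did not pass (limma adjusted p = 0.087, 0.0676 and 0.0916). It was 0 with the floor at 1, 1 with the filter on 8 arrays, 8 with quantile normalization and 8 with median centring. It was 6 with trend and robust and 0 in a fit of the 8 arrays compared. With the replicate block in that fit (added after seeing the data) it was 0 too. Without single arrays it ran from 1 to 7. The 5 general macrophage genes became 2 without a floor, 2 in the fit of 8 arrays, 1 there with the replicate block, and 4 to 8 without single arrays. The 12 genes higher in B6_B1a than in B6_Bs became 4, 5 and 3 in the same 3 settings, and 8 to 12 without single arrays. Over all features the calls between B1a groups numbered 87 to 1101 (768 as reported), and those between Bs groups 1 to 63 (35 as reported). Where fewer arrays entered a fit, the construction lowered the residual degrees of freedom. The cause of a changed count was not tested in any setting. Values near the floor limit what the arrays can show.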

Other observations

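General macrophage genes were also looked at in the spleen preparations. Of the 18 measured, 0 passed the test between Sle2c1_Bs and B6_Bs by limma. At an unadjusted limma p under 0.05 there were 7, all of them lower in Sle2c1_Bs, where 3.42% of all features passed in either direction. Groups were lower without overlap in 7 as well, where 1.15% of all features were. The genes without overlap were Csf1r, C1qa, C1qb, Apoe, Ctsb, Fcer1g and Ccl6, named after their values were seen. C1qb, a chain of complement C1q, was at the floor on all 4 Sle2c1_Bs arrays and averaged 1.34 ± 0.323 score units in B6_Bs (SD, n = 4; difference -0.85, a bound, limma adjusted p = 0.632). C1qa was at the floor on all 4 Sle2c1_Bs arrays too and averaged 0.92 ± 0.167 in B6_Bs. Csf1r, the receptor of CSF1, averaged 1.34 ± 0.134 score units in Sle2c1_Bs and 1.73 ± 0.170 in B6_Bs (SD, n = 4 each). Splenic red pulp macrophage genes had a median difference of -0.445 score units over 7 genes, with 0 past the limma test and 4 lower at an unadjusted p under 0.05. Of 6 neutrophil genes 0 passed it and 4 were lower at an unadjusted p under 0.05, beside the same 3.42% of all features.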
